A study of Mus musculus with 9 samples.

Results

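Hepatic steroid-metabolizing dehydrogenases and reductases were followed in the liver of male C57BL/6 mice, the common inbred laboratory strain (substrain J per the study's methods). The set holds 9 genes of the 33211 in the table, Hsd3b2, Hsd3b3, Hsd3b5, Hsd11b1, Hsd17b2, Hsd17b6, Hsd17b13, Akr1c6 and Srd5a1, and the rows were found by gene symbol. The mice were fed a high-fat diet (HFD) from 8 weeks of age for 7 weeks. The diet had been kept in the freezer in the HFDfre group (n = 5) and in the fridge in the HFDfri group (n = 4), and both groups were wild type and received no other agent. There was no group on normal chow, so the levels on an HFD could not be set against levels without it. The 9 genes were chosen by earlier results on the difference between these same groups, so every difference between the diets given for them is a description and carries no test.

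Steroid hormones made in the adrenal gland and the gonads are broken down, and in part regenerated, in the liver. Dehydrogenases and reductases swap hydroxyl and keto groups at the 3, 11 and 17 positions of the steroid ring, and 5-alpha reductase saturates a double bond in the first ring, and each step can switch a hormone on or off for its receptor. Several of these enzymes differ between male and female mouse liver, where the pattern of growth hormone secretion sets their level.

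All 9 genes were expressed in all 9 libraries and passed the filter on low counts, with between 2156 and 63749 counts per gene and library. Hepatocyte transcripts such as Alb were abundant in all libraries, and 8 of 8 hepatocyte markers were detected. Of 10 markers of adrenal and gonadal steroid-producing cells, Cyp11a1, Cyp11b1, Cyp11b2, Hsd17b3, Nr5a1 and Mc2r were listed at 0 in all libraries, and the summed level of the list was between 32.2 and 43.4 CPM (the usual counts-per-million unit, after TMM scaling of the libraries) in HFDfre and between 28.5 and 37.9 CPM in HFDfri, most of it from Fdx1. In the same list, Star had 55 to 127 counts per library, Cyp21a1 had 121 to 398 and Hsd3b1 had at most 4. Of 7 kidney markers, 6 were at 0 and Umod had at most 6 counts. Library totals ran from 58614917 to 69353439 counts. The ribosomal RNA-like locus Gm26924 took from 0.466% to 11.1% of the counts, mitochondrial genes from 8.93% to 19.8%, and the major urinary protein (Mup) genes from 5.12% in HFDfre 4 to 14.4% in HFDfri 4. HFDfri 1 stood apart from the other HFDfri libraries, and 1106 genes differed between the diets without it against 150 with it (edgeR adjusted p under 0.05).

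Across all 14220 tested genes, 1.05% passed an edgeR adjusted p of 0.05, with 0.499% higher and 0.556% lower in HFDfri, and for 7.69% the groups did not overlap. Of the 9 steroid enzyme genes, 1, Srd5a1, passed that threshold and was also the only gene without overlap between the groups. As the genes were selected on this difference, nothing is read from that count. It became 0 without any of HFDfre 2, HFDfre 3, HFDfre 4, HFDfre 5, HFDfri 2, HFDfri 3 or HFDfri 4, and 2 without HFDfri 1, when Hsd3b3 was added.

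**Figure D1:**
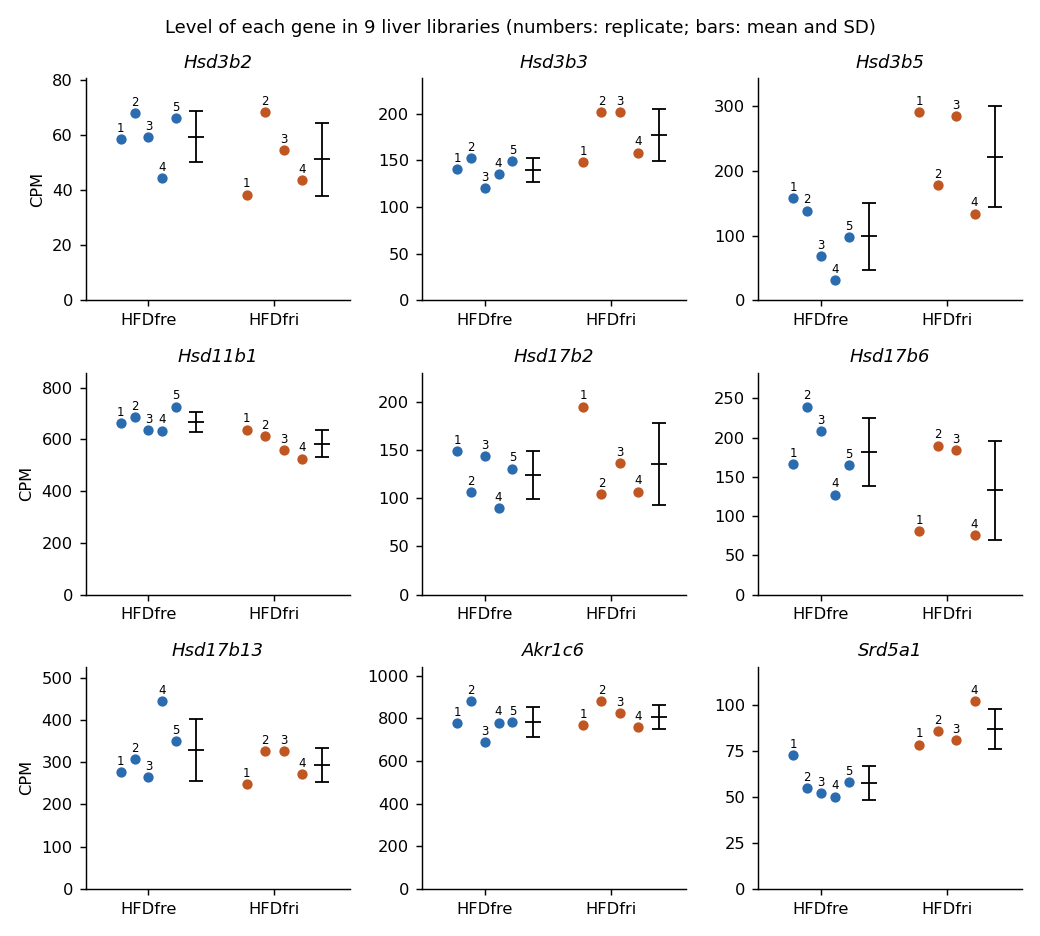
Level of the 9 genes in CPM (vertical axis, from 0) in each library of the HFDfre group (blue, n = 5) and the HFDfri group (orange, n = 4), with the replicate number above each point and the mean ± SD as a bar to the right. Srd5a1 is separated by group, Hsd3b5 is mostly higher in HFDfri, and the points of the other genes overlap.

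The 3-beta-hydroxysteroid dehydrogenases act on the 3 position of the ring. Hsd3b2 and Hsd3b3 belong to the members that oxidize it on the way to active steroids, whereas Hsd3b5 is a liver enzyme of male mice that works as a 3-ketosteroid reductase and inactivates androgens. Hsd3b5 had levels of 158.5, 138.5, 68.5, 31.2 and 97.6 CPM in HFDfre 1 to 5 and of 290.3, 178.5, 283.9 and 134.0 CPM in HFDfri 1 to 4. HFDfre 4 was the lowest of all libraries. HFDfri 1, HFDfri 2 and HFDfri 3 were above every HFDfre library, and HFDfri 4 lay inside the HFDfre range. The means were 98.9 ± 51.5 CPM in HFDfre and 222 ± 77.8 CPM in HFDfri (SD), a log2 fold change, taken throughout as HFDfri minus HFDfre, of 1.17 ± 0.39 (SE), or 2.24-fold. It stayed between 0.94 and 1.51 in 19 other settings of the analysis.

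Hsd3b3 ran at 140.2, 152.1, 120.0, 134.9 and 149.4 CPM in HFDfre 1 to 5 and at 148.2, 201.3, 201.2 and 158.1 CPM in HFDfri 1 to 4. HFDfri 2 and HFDfri 3 were the highest, and HFDfri 1 lay within the HFDfre range. Its log2 fold change was 0.35 ± 0.12. Hsd3b2 had 58.6, 68.1, 59.3, 44.5 and 66.2 CPM in HFDfre 1 to 5 and 38.4, 68.3, 54.6 and 43.7 CPM in HFDfri 1 to 4. Its groups overlapped over most of their range, with a log2 fold change of -0.21 ± 0.17. Differences between these 3 estimates were not tested.

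Per length of annotated exon, Hsd3b5 made up 73.0%, 67.9%, 56.0%, 37.8% and 60.4% of the summed level of the 3 genes in HFDfre 1 to 5. In HFDfri 1 to 4 its share was 84.8%, 69.8%, 79.9% and 70.3%. On this measure, HFDfre 4 was the only library in which Hsd3b3, at 39.6% of the sum, was above Hsd3b5. The shares depend on the exon lengths used, 1549 bases for Hsd3b5, 3695 for Hsd3b2 and 6396 for Hsd3b3. In CPM, which ignores length, Hsd3b3 was above Hsd3b5 in HFDfre 2, HFDfre 3, HFDfre 4, HFDfre 5, HFDfri 2 and HFDfri 4.

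The 3 genes lie in a cluster on the minus strand of chromosome 3 (GRCm38, GENCODE M21), Hsd3b5 at chr3:98618634-98630252, Hsd3b2 at chr3:98709255-98724543 and Hsd3b3 at chr3:98741523-98763127. The other members of the cluster were almost silent: Hsd3b6 was listed at 0 in all libraries, which allows a level of up to 0.0433 to 0.0512 CPM (3 counts per library), Hsd3b1 had at most 4 counts and Hsd3b4 at most 37. Coding sequences of Hsd3b2 and Hsd3b3 were 95.1% identical and those of Hsd3b5 and Hsd3b4 95.2%, whereas Hsd3b5 was 80.4% identical to Hsd3b2 and 80.7% to Hsd3b3. Of the 75-base windows of the coding sequence, 26.5% in Hsd3b2 and in Hsd3b3 also occur in another gene's transcript (each other or Hsd3b6), and 16.6% in Hsd3b5 (Hsd3b4, Gm10681 or Gm4450). The counts of Hsd3b2 and Hsd3b3 are therefore uncertain where reads could be shared between them. The paired reads given in the study's methods are longer than these windows, so the shares can overstate the ambiguous reads.

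The region before the start of transcription was alike in Hsd3b5 and Hsd3b3. Of the 9 genes, 8 had a RefSeq promoter window (250 bases before to 50 after the start, GRCm38.p6), and Hsd17b2 was not matched. Hsd3b3 and Hsd3b5 were 76.3% identical over 249 aligned bases, and the next of the 28 pairs reached 59.6%. Because these promoters were the most alike of the set, an aligned stretch is printed with bases identical in both in capitals. It was chosen to begin at position -140 of Hsd3b3. It covers positions -191 to -49 from the RefSeq start of Hsd3b5 (chr3:98645583-98645725, minus strand), which lies outside the GENCODE gene, and positions -140 to -1 of Hsd3b3 (chr3:98763129-98763268, minus strand, the first of its RefSeq starts).
Hsd3b5: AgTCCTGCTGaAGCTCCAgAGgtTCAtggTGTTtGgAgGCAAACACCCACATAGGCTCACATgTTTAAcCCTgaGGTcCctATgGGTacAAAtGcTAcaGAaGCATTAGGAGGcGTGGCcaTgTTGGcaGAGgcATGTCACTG
Hsd3b3: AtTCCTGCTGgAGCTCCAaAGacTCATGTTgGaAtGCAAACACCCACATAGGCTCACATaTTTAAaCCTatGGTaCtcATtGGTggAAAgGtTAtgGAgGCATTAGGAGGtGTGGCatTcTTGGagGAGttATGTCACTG
The capitals count 109 of the 143 bases of Hsd3b5 and 109 of the 140 of Hsd3b3. Runs of identical bases are broken by short differences along the whole stretch, and Hsd3b5 holds 3 more bases than Hsd3b3.

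Srd5a1 is steroid 5-alpha reductase type 1, which reduces testosterone and also starts the breakdown of glucocorticoids. It had 72.8, 54.7, 52.0, 50.2 and 58.0 CPM in HFDfre 1 to 5 and 78.4, 85.7, 80.7 and 102.3 CPM in HFDfri 1 to 4. The highest HFDfre library lay below the lowest HFDfri library. The means were 57.5 ± 9.03 and 86.8 ± 10.8 CPM, a log2 fold change of 0.59 ± 0.12 or 1.51-fold, which ran from 0.50 to 0.69 in the 19 other settings. Mup genes, whose transcripts are abundant in male liver, took a higher share of the counts in libraries with more Srd5a1 (r = 0.83 over 9 libraries), and mitochondrial genes a lower one (r = -0.62). Group means were not subtracted for these r values. The Mup share, like Srd5a1, was separated by diet, at most 8.94% in HFDfre and at least 9.17% in HFDfri. The part of the Mup and mitochondrial shares in the difference was not tested.

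Srd5a1 lies on the minus strand of chromosome 13 at chr13:69573449-69611442 and inside the span of Nsun2, an RNA methyltransferase gene on the plus strand. Nsun2 shared 0 annotated exon bases with Srd5a1 and was itself higher in HFDfri, at 35.8, 37.8, 31.9, 37.5 and 33.8 CPM in HFDfre 1 to 5 and 45.3, 50.8, 58.7 and 48.5 CPM in HFDfri 1 to 4 (log2 fold change 0.52 ± 0.09, edgeR adjusted p = 0.0354; chosen after its values were seen). The use of strand in counting is not given in the sources used here, so intronic reads of the genes could not be told apart. Gm17108, on the same strand as Srd5a1, shared 476 of the 2909 exon bases of Srd5a1 and had at most 16 counts. Of the 75-base windows of the Srd5a1 coding sequence, 30.1% also occur in Gm17108.

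The promoter of Srd5a1 differed in composition from those of the other genes. Its window held 63.0% G and C, more than 77.8% of all windows, and 24 CpG dinucleotides against a median of 7 over all windows. The other 7 windows had between 36.0% and 54.7% G and C and at most 6 CpG. The 150 bases before its start (positions -150 to -1, chr13:69611464-69611613, minus strand) are printed with the GC box letters GGGCGG in capitals.
Srd5a1: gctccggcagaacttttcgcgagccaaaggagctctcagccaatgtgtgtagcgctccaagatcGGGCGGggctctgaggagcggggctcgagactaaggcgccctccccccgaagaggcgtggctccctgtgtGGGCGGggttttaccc
The whole window had 4 matches to GGGCGG on either strand, a motif present in 35.7% of all 32851 windows, and no other gene of the set had a match. The letters TTCNNNGAA (STAT5, in 8.30% of windows) and TTGCNNAA (C/EBP, in 10.8%) were not found on either strand in the windows of these genes, and the core promoter letters TATAAA (in 13.6%) were found once, in Akr1c6. No match overlapped that of another motif.

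Hsd11b1 regenerates active glucocorticoid from its inert 11-keto form in the lumen of the endoplasmic reticulum. Its levels were 662.0, 685.5, 635.1, 634.2 and 727.4 CPM in HFDfre 1 to 5 and 638.3, 614.4, 558.0 and 526.2 CPM in HFDfri 1 to 4. Only HFDfri 1 reached the HFDfre range, and the spread within each group was small (5.84% and 8.78% of the mean, SD). The log2 fold change was -0.20 ± 0.10, or 0.874-fold. The gene lies at chr1:193221634-193264075 on the minus strand, inside the span of Lamb3 on the other strand, with 0 shared exon bases.

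The 17-beta-hydroxysteroid dehydrogenases are named for the 17 position, but those of this set differ in what they act on. Hsd17b2 inactivates estradiol and testosterone to their keto forms, and its levels were 148.8, 106.6, 143.5, 89.8 and 130.7 CPM in HFDfre 1 to 5 and 195.1, 104.2, 136.4 and 106.9 CPM in HFDfri 1 to 4. HFDfri 1 was the highest of all libraries and the others overlapped fully. The log2 fold change of 0.13 ± 0.20 became -0.11 without HFDfri 1 and -0.02 in the libraries with a Gm26924 share under 3%.

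Hsd17b6, which is close to the retinol dehydrogenases and oxidizes androstanediol, had 166.1, 239.8, 208.8, 127.4 and 165.6 CPM in HFDfre 1 to 5. It had 81.1, 189.9, 184.1 and 76.2 CPM in HFDfri 1 to 4. The HFDfri libraries formed a low pair, HFDfri 1 and HFDfri 4, and a pair within the HFDfre range. These 2 low libraries had the highest Mup shares, 13.8% and 14.4%. The log2 fold change was -0.45 ± 0.29, between -0.70 and -0.26 in the other settings.

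Hsd17b13 codes for a protein of the lipid droplet surface in hepatocytes. It had 276.5, 306.8, 264.9, 445.3 and 350.2 CPM in HFDfre 1 to 5 and 248.8, 325.8, 326.6 and 271.5 CPM in HFDfri 1 to 4. HFDfre 4 was the highest, and the HFDfri libraries lay within or just under the HFDfre range, with a log2 fold change of -0.17 ± 0.16.

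Akr1c6 is an aldo-keto reductase that reduces 17-ketosteroids. Its levels were 779.6, 882.9, 687.4, 780.1 and 781.6 CPM in HFDfre 1 to 5 and 768.0, 881.5, 825.1 and 758.5 CPM in HFDfri 1 to 4. It varied least between the diets, with a log2 fold change of 0.05 ± 0.10, and HFDfre 2 and HFDfri 2 were nearly equal as the highest of their groups.

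**Figure D2:**
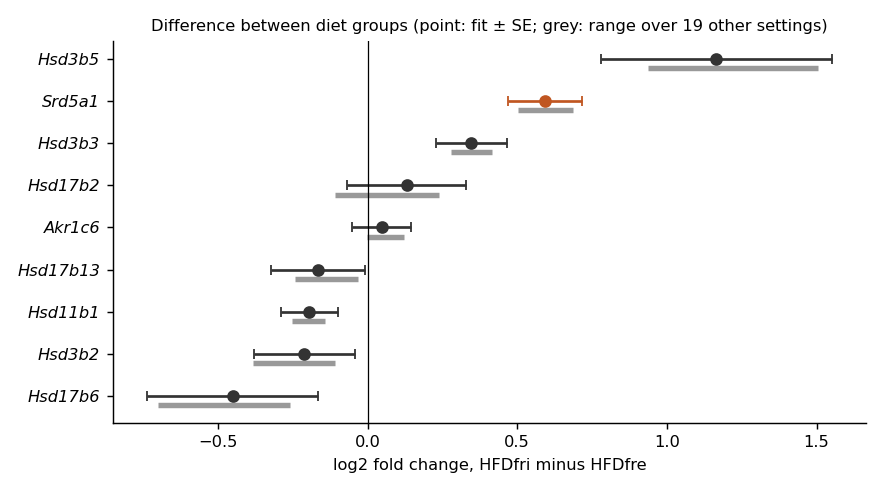
Log2 fold change of the 9 genes, HFDfri minus HFDfre (horizontal axis), as the edgeR estimate ± SE (points, n = 5 and 4), with the range over 19 other settings in grey and the gene without overlap between groups in orange. Hsd3b5 at 1.17 and Srd5a1 at 0.59 are the highest, Hsd17b6 at -0.45 is the lowest, and 5 of the 9 estimates are above 0.

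The median log2 fold change of all tested genes was -0.01, and 49.1% of them were higher in HFDfri. Of the steroid enzyme genes, 5 of 9 had an estimate above 0. RNA was taken from whole liver, where fewer cells of a type and less RNA per cell cannot be told apart.

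Levels can be compared between genes only per length, and over both diets together they do not use the difference that chose the genes. The mean over 9 libraries, in RPKM (CPM divided by the exon length in kilobases), was 390 ± 30.3 (SD) for Akr1c6, 148 ± 14.4 for Hsd11b1 and 145 ± 27.8 for Hsd17b13. It was 102 ± 35.2 for Hsd17b6, 99.1 ± 57.0 for Hsd3b5 and 67.1 ± 16.6 for Hsd17b2. The lowest levels were those of Hsd3b3 (24.4 ± 4.36), Srd5a1 (24.2 ± 6.16) and Hsd3b2 (15.1 ± 3.05). Of the 8 pairs of neighbours in this order, 4 differed beyond the spread between libraries by a two-sided exact sign-flip permutation test, with adjusted p = 0.0104 for Akr1c6 over Hsd11b1, for Hsd17b2 over Hsd3b3 and for Srd5a1 over Hsd3b2, and 0.0312 for Hsd17b13 over Hsd17b6. The first 3 of these differences had the same direction in 9 of 9 libraries and the last in 7 of 9. The other 4 pairs did not pass, with exact adjusted p between 0.431 and 0.758. Hsd3b5 and Hsd17b2 changed places when the length of the longest transcript was used, Hsd3b3 and Srd5a1 when HFDfre 2 or HFDfre 4 was left out, and Hsd17b6 and Hsd3b5 also when HFDfre 4 was left out. With the longest transcript, the geometric means of Hsd11b1 and Hsd17b13 were 318 and 181 RPKM, further apart than with the exon length. The p-values above use the exon length and do not measure the effect of that choice. Within a diet group the order of the means was not the same. Hsd3b5 was at 63.8 RPKM in HFDfre, under Hsd17b2 at 64.4 RPKM, and at 143 RPKM in HFDfri, above Hsd11b1 at 137 RPKM and Hsd17b13 at 136 RPKM. Srd5a1 was at 19.8 RPKM in HFDfre, under Hsd3b3 at 21.8 RPKM, and at 29.8 RPKM in HFDfri, above Hsd3b3 at 27.7 RPKM.

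**Figure D3:**
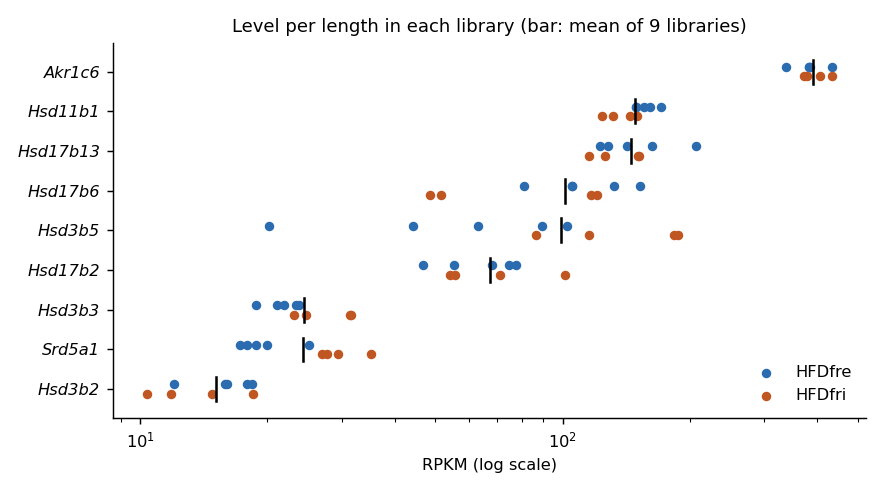
Level of the 9 genes in RPKM (horizontal axis, log scale) in each HFDfre (blue, n = 5) and HFDfri (orange, n = 4) library, with the mean of 9 libraries as a black bar. Akr1c6 stands highest at 390, Hsd3b2 lowest at 15.1, and Hsd3b5 covers the widest range, from 20.1 to 187.

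Within the groups, the genes fell into patterns of their own. Each value below is a Pearson r of log2 CPM after subtracting the group mean, over 9 libraries that share depth and scaling, and is a description. Hsd3b2 ran with Hsd17b6 (r = 0.86) and with Hsd3b3 (r = 0.77), and Hsd3b3 with Akr1c6 (r = 0.83) and Hsd17b6 (r = 0.73). Hsd3b5 ran with Hsd17b2 (r = 0.63), and both ran against Hsd17b13 (r = -0.56 and -0.69). Over all 36 pairs the median r was 0.24, with 8 pairs over 0.5 and 2 under -0.5.

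HFDfre 4 had the lowest level of its group for 6 of the 9 genes, Hsd3b2, Hsd3b5, Hsd11b1, Hsd17b2, Hsd17b6 and Srd5a1, and the highest for Hsd17b13. It also had the lowest Mup share. HFDfri 2 was the highest of its group for Hsd3b2, Hsd3b3, Hsd17b6 and Akr1c6, as HFDfre 2 was in HFDfre. HFDfri 1 was highest for Hsd3b5, Hsd11b1 and Hsd17b2 and lowest for Hsd3b2, Hsd3b3, Hsd17b13 and Srd5a1.

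**Figure D4:**
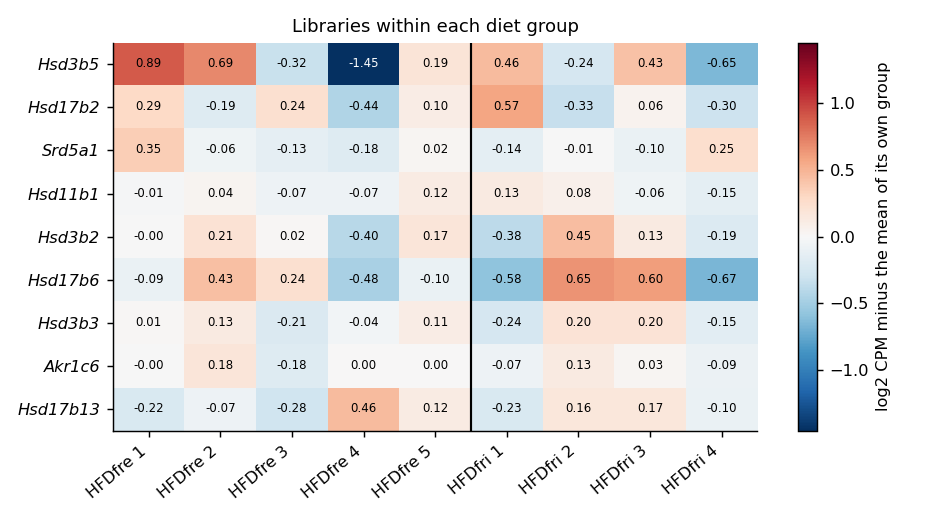
Log2 CPM of each gene (rows) in each library (columns) minus the mean of its own diet group, in color and as numbers, with a line between the HFDfre and HFDfri libraries. Hsd3b5 in HFDfre 4 has the largest deviation (-1.45), Hsd17b6 splits the HFDfri libraries into a pair above and a pair below the mean, and Hsd11b1 and Akr1c6 stay near 0.

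Among 10106 tested genes whose mean log2 CPM was 1 or higher, the closest to each gene within the groups were found by the same measure. With so many genes compared over 9 libraries, high values also arise by chance, and shared regulation was not tested. They were Car8 (r = 0.97) and Zfp318 (r = 0.96) for Hsd3b2, and Cds2 (r = 0.98) and Gbas (r = 0.97) for Hsd3b3. Hsd3b5 was closest to Vegfa (r = 0.95) and Tcf4 (r = 0.94), and Hsd11b1 to Akr1e1 (r = 0.96) and Aven (r = 0.92). For Hsd17b2 they were Tmem258 and Magoh (both r = 0.97), and for Hsd17b6 Atrx and Hars2 (both r = 0.97). Hsd17b13 was closest to Tgoln1 (r = 0.99) and Smpd1 (r = 0.96), Akr1c6 to Pcnx (r = 0.96), and Srd5a1 to Csnk2a2 (r = 0.95) and Pcdhga9 (r = 0.93).

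The genes around the set in its chains of reactions were taken from 11 lists with 182 genes, of which 147 were tested. Of these, 13 passed an edgeR adjusted p of 0.05 over all tested genes (1.05% did so over all genes). The lists were written with earlier results of these data known, and Selenbp2, Serpina1e, Acot3 and Vldlr had already been seen to differ, so the lists are no independent evidence of a direction.

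H6pd makes the NADPH that Hsd11b1 uses inside the endoplasmic reticulum, and it rose in HFDfri. Its levels were 233.9, 230.8, 208.1, 236.0 and 229.0 CPM in HFDfre 1 to 5 and 454.8, 305.6, 307.5 and 314.1 CPM in HFDfri 1 to 4. The groups did not overlap, and HFDfri 1 was far above the other HFDfri libraries (log2 fold change 0.60 ± 0.12, edgeR adjusted p = 0.0467). Hsd11b1 in the same libraries had an estimate below 0. The call was lost without HFDfre 1, HFDfre 2, HFDfre 3, HFDfre 4, HFDfre 5, HFDfri 3 or HFDfri 4 (edgeR adjusted p up to 0.133), with a log2 fold change between 0.43 and 0.66. Of the 8 genes for cofactor supply and redox partners, the other 7 did not pass, among them Por (0.10 ± 0.18), Idh1 (-0.09 ± 0.08) and G6pdx (0.45 ± 0.19).

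The list of relatives in the same enzyme families had 17 tested genes. It also held H6pd, which supplies NADPH to Hsd11b1 and is not a member of those families. H6pd was the only call by edgeR, and the other 16 genes did not pass. The median log2 fold change of the 17 was 0.05, with 10 above and 7 below 0. The count of 1 became 4 by DESeq2 and 4 without HFDfri 1, and 0 without each library that H6pd depends on. The most abundant were Hsd17b4, a peroxisomal enzyme of fatty acid oxidation (-0.03 ± 0.11), Hsd3b7, an enzyme of bile acid synthesis (0.00 ± 0.10), and Hsd17b10, a mitochondrial dehydrogenase. Hsd17b10 was at 341 ± 33.1 CPM in HFDfre and 252 ± 37.9 CPM in HFDfri without overlap (-0.43 ± 0.12, edgeR adjusted p = 0.0923). Srd5a2, the other 5-alpha reductase with an androgen role, had between 22 and 72 counts per library (0.66 ± 0.30, edgeR adjusted p = 0.236). Srd5a3, added here after its values were seen, had between 276 and 657 counts and went the other way without overlap (-0.51 ± 0.13, edgeR adjusted p = 0.0758).

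The Akr1c genes within 500 kb of Akr1c6 on chromosome 13 had estimates between -0.16 for Akr1c20 and 0.47 for Akr1c14, and none of the 5 tested passed (edgeR adjusted p of 0.185 or more). Akr1c20 was 92.3% identical to Akr1c6 in its coding sequence but shared no 75-base window with it. Next to Hsd17b13 on chromosome 5, Hsd17b11 had an estimate of -0.09 ± 0.12. Hsd17b6 lies at the end of a cluster of retinol dehydrogenases on chromosome 10, and 19.8% of its coding windows also occur in Rdh1, Rdh7, Rdh9, Rdh16, Rdh16f1, Rdh19 or Rdh18-ps.

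Retinol dehydrogenases, which share the fold of Hsd17b6 and Hsd17b13, gave 0 calls of 13 tested by edgeR, with 3 at an unadjusted p under 0.05, 1 call by DESeq2 and 1 without HFDfri 1 or HFDfri 2. Rdh7, the most abundant, was at 1034 ± 32.9 CPM in HFDfre and 1018 ± 40.7 CPM in HFDfri, while Dhrs4 (-0.01 ± 0.11) and Dhrs3 (-0.21 ± 0.10) also had small estimates. Dhrs9 (8 to 63 counts) and Rdh1 (2 to 28 counts) had the largest estimates of the list, 1.58 ± 0.44 and -1.06 ± 0.67, at levels under 1 CPM. Rdh16f1, which overlaps Rdh1 and Rdh9 and is in the table under another symbol, had between 83 and 3314 counts (-1.87 ± 0.68, edgeR adjusted p = 0.155).

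Serpina6, the corticosteroid-binding globulin that carries glucocorticoid in blood, fell in HFDfri. It had 243.5, 216.8, 267.0, 179.6 and 251.6 CPM in HFDfre 1 to 5 and 148.8, 167.0, 147.3 and 149.4 CPM in HFDfri 1 to 4. The groups did not overlap (log2 fold change -0.60 ± 0.12, edgeR adjusted p = 0.0396), and the call was lost without HFDfre 1, HFDfre 2, HFDfre 3, HFDfre 5, HFDfri 3 or HFDfri 4 (edgeR adjusted p up to 0.124). It was the only call by edgeR among 8 tested carriers and receptors, where DESeq2 gave 4, limma-voom 2, a minimum of 10 counts in every library 3, and edgeR without HFDfri 1 gave 4. The organic anion transporters Slco1a1 (0.74 ± 0.16, edgeR adjusted p = 0.0533), Slco1b2 (0.23 ± 0.14) and Slco1a4 (-0.76 ± 0.27) did not pass.

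Of 13 tested genes for steroid conjugation and hydroxylation, 3 rose and 0 fell by edgeR, and 6 passed by DESeq2 and 5 without HFDfri 1. The count was 0 without HFDfre 3, HFDfre 5, HFDfri 3 or HFDfri 4, and 1 without HFDfre 1 or HFDfre 4. Cyp7b1, which hydroxylates oxysterols and dehydroepiandrosterone, was at 80.9, 96.1, 82.2, 56.4 and 84.4 CPM in HFDfre 1 to 5 and at 346.4, 119.8, 254.0 and 193.1 CPM in HFDfri 1 to 4 (1.51 ± 0.25, edgeR adjusted p = 0.0293). The glucuronosyltransferases Ugt2b38 (0.81 ± 0.12) and Ugt2b1 (0.51 ± 0.10) rose too. Ugt2b5 and Ugt2b36, the most abundant of the list, had estimates of -0.27 ± 0.10 and -0.37 ± 0.09 and did not pass, nor did Ugt2b37 (1.23 ± 0.50). The call of Ugt2b38 was lost without HFDfre 3, HFDfre 5, HFDfri 3 or HFDfri 4 (edgeR adjusted p up to 0.0888), that of Cyp7b1 also without HFDfre 1 or HFDfre 4 (up to 0.0888), and that of Ugt2b1 without any single library other than HFDfri 1 (up to 0.126).

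Genes that are higher in male liver, as Hsd3b5 is known to be, had estimates above 0 in 21 of 21 cases, with a median log2 fold change of 0.74. Of these, 7 rose, Selenbp2 (2.47 ± 0.30), Serpina1e (2.09 ± 0.36), C6 (1.14 ± 0.21) and Susd4 (0.89 ± 0.17) beside Cyp7b1, Ugt2b38 and Ugt2b1, where 0.499% of all genes rose. Moxd1 was at 0 in all HFDfre libraries and at 5.89, 0.318, 0.204 and 6.98 CPM in HFDfri 1 to 4, and did not pass. Of 17 tested female-biased genes, 15 had estimates below 0, with a median of -1.03, and 4 fell, the acyl-CoA thioesterases Acot3 (-2.45 ± 0.30) and Acot4 (-1.05 ± 0.16), the lipoprotein receptor Vldlr (-1.56 ± 0.31) and Tox (-1.03 ± 0.19), where 0.556% of all genes fell. The abundant urinary protein genes Mup7 (1.08 ± 0.31) and Mup20 (0.31 ± 0.20) did not pass, nor did Cyp2a5 (-0.92 ± 0.21), Cyp2b9 (-3.57 ± 0.91), Prlr (-0.58 ± 0.20) or Cyp17a1 (-0.61 ± 0.19). Selenbp2 and Acot3 passed with each library left out in turn. Without HFDfre 1 to 5 in turn, 3, 4, 1, 2 and 1 male-biased and 3, 2, 1, 2 and 1 female-biased genes passed. Without HFDfri 1 to 4 in turn, 10, 8, 1 and 1 male-biased and 8, 5, 2 and 1 female-biased genes passed.

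Within the diet groups, Hsd3b5 and Hsd17b2 followed the mean log2 CPM of the 19 male-biased genes with enough counts (r = 0.69 and 0.83 over 9 libraries), and Hsd17b13 ran against it (r = -0.93). Srd5a1 followed it less (r = 0.36) and ran against the mean of 8 female-biased genes (r = -0.80), which Hsd17b13 followed (r = 0.81). HFDfre 4 had the lowest male-biased mean of all libraries, 6.88 log2 CPM, and the highest female-biased mean, 5.70 log2 CPM.

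**Figure D5:**
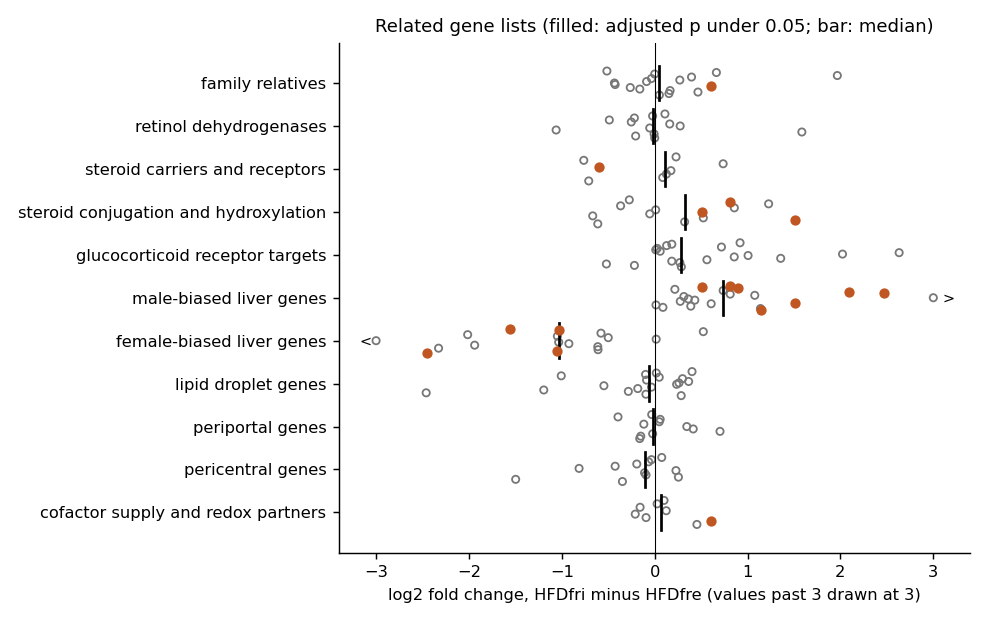
Log2 fold change, HFDfri minus HFDfre (horizontal axis), of the tested genes of 11 related lists (rows), with genes past an edgeR adjusted p of 0.05 filled, others open, and the median of each list as a bar. The median is 0.74 for male-biased and -1.03 for female-biased genes, and between -0.10 and 0.32 for the other lists.

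Targets of the glucocorticoid receptor gave 0 calls of 18 tested by edgeR and limma-voom, with 4 at an unadjusted edgeR p under 0.05 and 2 calls by DESeq2, and edgeR called 4 when HFDfri 1 was left out. Their median was 0.28, with 16 of 18 estimates above 0. HFDfri 1 differed from the rest of its group in several of them. Tat, which degrades tyrosine, was at 280.2 CPM there and between 970.0 and 1545 CPM in the other HFDfri libraries, against 514.3 to 699.3 CPM in HFDfre. The metallothionein Mt2 was at 693.9 CPM in HFDfri 1 and at 8.46, 3.56 and 121.3 CPM in HFDfri 2 to 4. It was between 15.6 and 77.6 CPM in HFDfre (2.63 ± 1.12). The estimate of Mt1 was also above 0 (2.02 ± 0.98). For Mt1 and Mt2 alike, HFDfri 1 and HFDfri 4 were above every HFDfre library, whereas HFDfri 2 and HFDfri 3 were below every HFDfre library. Their estimates above 0 therefore do not describe all HFDfri libraries. Pck1 (0.06 ± 0.20) and Tdo2 (0.13 ± 0.22), the most abundant with Tat, did not pass.

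Lipid droplet genes, which share their place in the cell with Hsd17b13, gave 0 calls of 18 by edgeR, 5 at an unadjusted p under 0.05 and 2 by DESeq2, with a median of -0.06. Dgat2 (-0.03 ± 0.11), Plin2 (0.30 ± 0.16) and Cideb (-0.28 ± 0.11) were the most abundant, and Cidea (-2.46 ± 0.76) and Cidec (-1.19 ± 0.57) had the largest estimates. For periportal hepatocyte genes edgeR gave 0 calls of 11 (3 unadjusted, 2 by DESeq2, median -0.02), with Ass1 (-0.02 ± 0.14) beside Cps1 (0.70 ± 0.17) and Ctsc (0.41 ± 0.11). For pericentral genes it gave 0 of 12 (4 unadjusted, 2 by DESeq2, median -0.10), with Cyp2e1 (-0.09 ± 0.12), Rgn (-0.19 ± 0.11) and Glul (-0.11 ± 0.10) beside Cyp1a2 (-1.50 ± 0.58) and Lgr5 (-0.81 ± 0.28). The 42 tested genes of 10 cell type marker lists gave 0 calls by edgeR, 11 at an unadjusted p under 0.05 and 4 by DESeq2. Without HFDfri 1, edgeR called 1 gene in each of the lipid droplet, periportal and pericentral lists and 4 marker genes, and without HFDfri 2 it called 1 marker gene.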

How the data were processed

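RNA from 9 whole livers was sequenced as paired-end Illumina reads. Per the labels' processing notes and the methods, the authors used HISAT2, StringTie and mm10; which annotation and strand setting were used is not given in the sources used here. The labels and the methods name different library kits. The authors deposited estimated counts per gene as whole numbers, not scaled between libraries, with a pile-up at multiples of 4 (the value 4 in 3990 gene and library pairs, the value 3 in 2172), so counting error is only approximate. Rounding left them unchanged.

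Genes were kept by filterByExpr (14220 of 33211) and tested by the quasi-likelihood method in edgeR 4.0.16 (R 4.3.3), TMM, no covariate, with Benjamini-Hochberg adjustment over all tested genes. The SE is the size of the log2 fold change divided by the root of F. For log2 CPM the prior count was 2. The p-values measure the spread between libraries, 1 for each animal as far as stated. The table's identifiers matched GENCODE M21 (GRCm38) in 96.3% of cases, and lists were matched by the symbols of the table. The 9 genes and all lists were chosen with earlier results of these data known. Genes named are these 9, list genes past the threshold, from each list the 3 most abundant and the 2 with the largest change, the 2 closest genes by r, and family neighbours within 500 kb; 2 genes that this rule names are not reported here. Marker lists covered hepatocyte, Kupffer, stellate, endothelial, bile duct, lymphocyte, steroid-producing, kidney, pancreas and fat cells. The alternatives were DESeq2 1.42.0, limma-voom (limma 3.58.1), other scalings and filters, values divided by 4, a ribosomal locus covariate or limit, the replicate block and each library left out. The scripts were tested on simulated data. The replicate numbers did not pair the libraries.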

Additional observations from a re-analysis of the deposited data

Results flagged for a closer look

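None of the 9 steroid enzyme genes had a library that stood alone in its group by Dixon's criterion. In the 44 sets of values searched, those of the 9 genes and of the 13 list genes past the threshold in each group, 5 such libraries were found, where chance gives 2.2, all of them in 4 of the list genes. H6pd had its lowest HFDfre level in HFDfre 3 (208.1 CPM against 229.0 to 236.0 CPM, gap 0.76 of the range) and its highest HFDfri level in HFDfri 1 (454.8 CPM against 305.6 to 314.1 CPM, gap 0.931). Selenbp2 was lowest in HFDfre 4 (121.4 CPM against 216.6 to 267.7 CPM, gap 0.732), as was Ugt2b1 (254.6 CPM against 315.9 to 335.9 CPM, gap 0.778). Serpina6 was highest of its group in HFDfri 2 (167.0 CPM against 147.3 to 149.4 CPM, gap 0.887).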

How the results depend on the processing

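The log2 fold changes of the 9 genes stayed within the SD between libraries in all 19 alternatives; Hsd17b2 and Akr1c6 (-0.003 without HFDfre 3) crossed 0. Scaling moved the median of all genes by less than 0.1. The number of the 9 genes past an adjusted p of 0.05 (1 by edgeR) was 0 without the filter, under a covariate for the ribosomal locus, in the libraries with a locus share under 3% and with the replicate block (3, 3, 2 and 4 at an unadjusted p under 0.05), and 0 to 2 with 1 library left out. Over all genes, 150 became 76 with library totals, 1033 by DESeq2, 72 with no filter, 38 with the covariate, 2 in the low-share libraries and 0 with the replicate block (2536 unadjusted), and 6 to 1106 with 1 library left out. The 13 list genes became 39 by DESeq2, 8 with no filter, 3 with the covariate, 1 in the low-share libraries, 0 with the block (56 unadjusted), and 2 to 35 with 1 library left out. The 7 male-biased genes became 12, 2 with the covariate, 0 in the low-share libraries and 0 with the block (14 unadjusted in both), and 1 to 10; the 4 female-biased became 9, 1 with the covariate, 1 in the low-share libraries and 0 with the block (9 unadjusted), and 1 to 8. The 4 neighbour pairs by level became 3 to 4 with 1 library left out. Same-numbered libraries correlated at 0.027, 0.0813, -0.136 and 0.0339, so they share only a number. The causes of these changes were not tested.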
